A study of Mus musculus with 18 samples.

Results

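Csrp1, Csrp2 and Csrp3 encode the cysteine-rich proteins, small proteins built of a pair of zinc-binding LIM domains. They were followed by gene name through the count files of the series, as 3 of the 35006 gene names listed there. Csrp3 was selected on its read counts with NACET, which were lower in both genotypes, so those differences are given below as a description without a test. Csrp1 and Csrp2 were included by name, as its paralogs.

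LIM domains bind other proteins rather than DNA, and the cysteine-rich proteins join the actin cytoskeleton, through alpha-actinin and zyxin, to factors that act in the nucleus. Csrp3, also called muscle LIM protein, is best known from the Z-disc of heart and skeletal muscle, where its loss leads to cardiomyopathy, and as a cofactor of myogenic transcription factors. Csrp1 and Csrp2 are known mainly from smooth muscle and mesenchymal cells. In the rodent retina, muscle LIM protein has been described in amacrine cells, the cholinergic type among them.

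The data were poly(A) RNA sequencing of whole retina from male mice at 24 weeks of age, in 18 libraries of 4 groups. WT mice were C57BL/6J and drank water (3 libraries), and WT + NACET mice were C57BL/6J given NACET (6 libraries). Akita mice, C57BL/6-Ins2Akita/J, carried 1 mutant copy of the insulin gene Ins2 in all tissues, are diabetic through loss of pancreatic beta cells and drank water (4 libraries). Akita + NACET mice were of the same line and were given NACET (5 libraries). NACET is N-acetyl-L-cysteine ethyl ester, a cell-permeable cysteine donor, and was supplied in drinking water at 0.33 mg/mL, for 50 mg/kg per day, from 4 weeks of age onward. The labels number the libraries within a group but do not say whether each came from its own animal, so p-values measure the spread between these libraries.

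Between 11590384 and 18073791 reads were assigned to genes per library, and 11495596 to 17814479 remained once ribosomal RNA genes were removed. The listed rod markers were detected in every group, as the labelled tissue requires. The WT + NACET libraries stood apart from the other groups. Levels are given as CPM, gene counts scaled to the same library size. Acp1, a phosphatase gene, was at 2.48 ± 0.451 CPM there (SD, n = 6), against 33.2 ± 6.73 in WT (n = 3), 36.7 ± 2.25 in Akita (n = 4) and 32.7 ± 2.96 in Akita + NACET (n = 5). Wdfy1, an endosomal adaptor gene, was at 95.2 ± 5.30 CPM in WT + NACET, against 14.5 ± 1.52, 14.2 ± 1.39 and 16.0 ± 0.930 in those groups. The share of reads outside annotated exons was 16.3% ± 1.24 in WT, 12.7% ± 2.74 in WT + NACET, 11.5% ± 1.83 in Akita and 16.4% ± 2.11 in Akita + NACET. It ran from 9.67% to 13.3% in Akita and from 14.3% to 19.8% in Akita + NACET, without overlap (two-sided exact permutation p = 0.0159, adjusted p = 0.0857 over 6 pairs of groups).

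In mm9, the genome build of the files, Csrp3 (ENSMUSG00000030470.7) lies on the minus strand of chromosome 7, from 56085768 to 56103400, with 932 bp of exons. Csrp1 (ENSMUSG00000026421.8) is on the plus strand of chromosome 1, from 137616638 to 137648809, with 1956 bp of exons. Csrp2 (ENSMUSG00000020186.5) is on the plus strand of chromosome 10, from 110357232 to 110376678, with 997 bp of exons. No other annotated gene overlapped any of the 3 loci. The coding sequences were 582 bases long in Csrp1 and Csrp2 and 585 in Csrp3. Aligned, Csrp1 and Csrp2 were identical at 73.7% of bases, Csrp1 and Csrp3 at 69.0%, and Csrp2 and Csrp3 at 66.5%.

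The stretch of 60 coding bases in which the 3 genes were most alike is shown to let the closeness of the paralogs be judged, since reads that could come from either gene would blur their counts. Capitals mark the bases that were not identical in all 3 genes, and 45 of the 60 were identical. It covers coding bases 382 to 441 of Csrp1 and Csrp2 and 385 to 444 of Csrp3, taken from the mm9 transcripts.
Csrp1: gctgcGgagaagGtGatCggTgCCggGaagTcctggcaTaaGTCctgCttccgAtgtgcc
Csrp2: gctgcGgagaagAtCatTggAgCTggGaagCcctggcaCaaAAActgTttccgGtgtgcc
Csrp3: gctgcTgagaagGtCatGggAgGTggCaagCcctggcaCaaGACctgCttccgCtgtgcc
Even here the differences fell every few bases. The longest run that any annotated transcripts of a pair shared exactly was 15 bases between Csrp1 and Csrp2, 15 between Csrp1 and Csrp3, and 14 between Csrp2 and Csrp3, which is shorter than a sequencing read. The counts of the paralogs were therefore taken as separate.

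Csrp3 had 74 to 255 reads per library, and its level was lower in every library with NACET than in every library without it. Csrp3 was chosen for being lower with NACET, so this separation is not support for it. Groups did not overlap for 11.5% of all genes in WT + NACET vs WT and for 14.1% in Akita + NACET vs Akita. In WT the level of Csrp3 was 11.7, 14.6 and 15.35 CPM. In WT + NACET it ran from 4.87 to 6.75 CPM, with a median of 5.38. In Akita it was 9.75, 9.96, 8.35 and 12.6 CPM, and in Akita + NACET 6.27, 7.07, 7.40, 6.65 and 5.94. Group means were 13.9 ± 1.93 CPM in WT (SD, n = 3), 10.2 ± 1.77 in Akita (n = 4), 6.67 ± 0.589 in Akita + NACET (n = 5) and 5.58 ± 0.708 in WT + NACET (n = 6). In this order, WT and Akita overlapped, the lowest Akita library at 8.35 CPM stood above the highest Akita + NACET library at 7.40, and the NACET groups overlapped again. Counting error alone was 6.26% to 11.6% of the value per library.

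**Figure D1:**
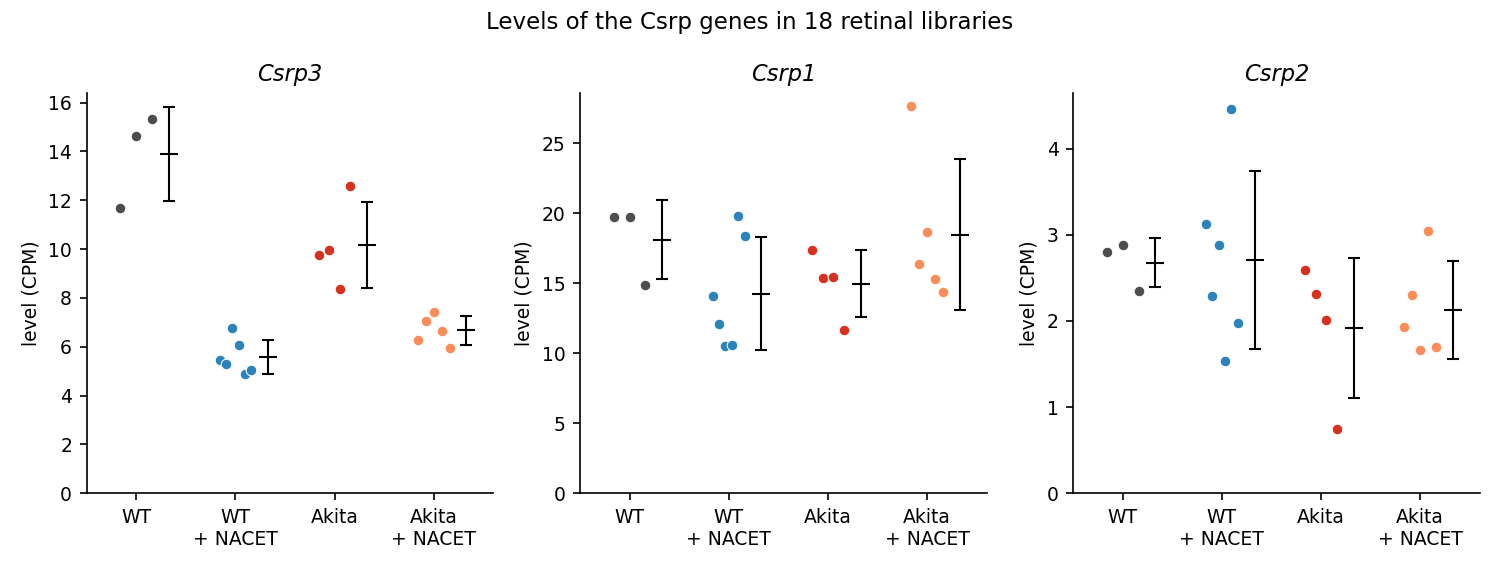
Level of Csrp3, Csrp1 and Csrp2 in CPM (vertical axes, each from 0) in each of the 18 libraries, by group; each point is 1 library and the bars give the mean and SD. The 11 NACET libraries sit at or below 7.40 CPM for Csrp3 and the 7 untreated libraries at or above 8.35, while the groups overlap for Csrp1 and Csrp2. Csrp3 was chosen for being lower with NACET.

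As a description of the values that chose the gene, Csrp3 in WT + NACET was at 0.402 of its WT level, a log2 fold change of −1.32 ± 0.14 (SE), and in Akita + NACET at 0.658 of its Akita level, a log2 fold change of −0.60 ± 0.14. Of all 16183 genes tested, 0.328% had a lower log2 fold change in WT + NACET vs WT and 2.29% in Akita + NACET vs Akita. Against untreated WT, Akita + NACET was at 0.480 of the level, with a log2 fold change of −1.06 ± 0.15, lower than that of all but 0.742% of genes. These 3 contrasts share libraries with one another. In whole tissue, fewer cells of a type and less RNA per cell cannot be told apart. With the 2 Akita groups fitted alone, without any WT + NACET library, the log2 fold change of Csrp3 was −0.58 ± 0.14. Acp1 and Wdfy1, which set the WT + NACET libraries apart, did not pass the test in Akita + NACET vs Akita (edgeR adjusted p = 0.348 and 0.186). What sets the WT + NACET libraries apart cannot be told apart from NACET within WT.

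Whether Csrp3 differed between the genotypes was tested in the same fit, with edgeR's quasi-likelihood test and adjustment over all genes. These contrasts were not used to choose the gene, but share libraries with those that were. In untreated retina, Csrp3 was at 0.730 of its WT level in Akita, a log2 fold change of −0.45 ± 0.15 (95% interval −0.78 to −0.13), which missed the threshold of 0.05 (edgeR adjusted p = 0.0704). It passed with DESeq2 on all groups (adjusted p = 0.0430) and where only genes with a mean count of at least 50 were tested (edgeR adjusted p = 0.0448), and missed with DESeq2 on these 2 groups alone (adjusted p = 0.139). The adjusted p ran from 0.0167 to 0.299 over the alternatives with all libraries. Under NACET the mean was higher in Akita than in WT, with a log2 fold change of 0.26 ± 0.13 (−0.01 to 0.52, edgeR adjusted p = 0.175).

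The log2 NACET effect on Csrp3 in Akita minus that in WT is the interaction. It is built from the 2 NACET contrasts whose signs chose the gene, so its p-value is not independent of that choice. It was 0.71 ± 0.20 (0.29 to 1.13, edgeR adjusted p = 0.0194). Calls were common in this contrast, with 20.3% of all tested genes past the threshold, and Csrp3 was the only member called in any tested contrast. The call was lost without WT replicate 2, where the value was 0.67 (edgeR adjusted p = 0.0541), and when the percentage of reads outside exons entered the fit, where the value was 0.89 (edgeR adjusted p = 0.382). That percentage moved with the groups as given above, and 17 genes in all were called in the interaction of that fit.

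Csrp1 had 139 to 402 reads per library and overlapped between all groups. It was 19.75, 19.7 and 14.9 CPM in WT, and 17.4, 15.4, 15.45 and 11.7 in Akita. In WT + NACET it ran from 10.55 to 19.85 CPM, with a median of 13.1, and in Akita + NACET it was 27.7, 16.4, 18.7, 15.3 and 14.4. The spread within a group was wider than for Csrp3 where NACET was given, with a coefficient of variation of 28.2% in WT + NACET and 29.2% in Akita + NACET, against 12.7% and 8.83% for Csrp3. The highest value, 27.7 CPM, was that of 1 Akita + NACET library.

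Csrp1 passed the threshold in none of the 6 contrasts. With NACET its log2 fold change was −0.34 ± 0.22 in WT (95% interval −0.80 to 0.11, edgeR adjusted p = 0.391) and 0.30 ± 0.21 in Akita (−0.14 to 0.74, edgeR adjusted p = 0.357). The fold change described for Csrp3 in the same genotype, −1.32 in WT and −0.60 in Akita, lay outside each interval. Csrp3 was chosen for being lower with NACET, and each of its values has an SE of 0.14. Their place outside the intervals is therefore a description and not a test of Csrp1 against Csrp3. Between genotypes the log2 fold change of Csrp1 was −0.27 ± 0.24 untreated (−0.77 to 0.23, edgeR adjusted p = 0.486) and 0.37 ± 0.19 under NACET (−0.02 to 0.76, edgeR adjusted p = 0.182). The interaction was 0.64 ± 0.30 (0.01 to 1.27, edgeR adjusted p = 0.134), and Akita + NACET vs WT gave 0.03 ± 0.23 (−0.44 to 0.50, edgeR adjusted p = 0.9996). Without Akita + NACET replicate 1, the library at 27.7 CPM, the value was 0.11 in Akita + NACET vs Akita and 0.18 in Akita + NACET vs WT + NACET. Without Akita replicate 4 it was −0.17 in Akita vs WT.

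Csrp2 was the lowest of the family, with 9 to 75 reads per library and a counting error of 11.6% to 33.3%. It was 2.80, 2.88 and 2.35 CPM in WT, and 2.60, 2.32, 2.01 and 0.746 in Akita. In WT + NACET it ran from 1.53 to 4.46 CPM, with a median of 2.59, and in Akita + NACET it was 1.93, 2.30, 1.66, 3.05 and 1.70. All groups overlapped, and the lowest value was that of Akita replicate 4, with 9 reads. That library also had the highest Csrp3 and the lowest Csrp1 of the Akita group.

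The contrasts of Csrp2 had wide intervals and none passed the threshold. With NACET its log2 fold change was 0.02 ± 0.32 in WT (95% interval −0.65 to 0.69, edgeR adjusted p = 0.975) and 0.13 ± 0.32 in Akita (−0.52 to 0.79, edgeR adjusted p = 0.815). Between genotypes it was −0.46 ± 0.35 untreated (−1.20 to 0.28, edgeR adjusted p = 0.423) and −0.35 ± 0.28 under NACET (−0.93 to 0.23, edgeR adjusted p = 0.407). The interaction was 0.11 ± 0.45 (−0.83 to 1.05, edgeR adjusted p = 0.882), and Akita + NACET vs WT gave −0.32 ± 0.33 (−1.02 to 0.37, edgeR adjusted p = 0.9996). Without Akita replicate 4 the value in Akita vs WT was −0.21, and without WT + NACET replicate 5 that in Akita + NACET vs WT + NACET was −0.14.

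**Figure D2:**
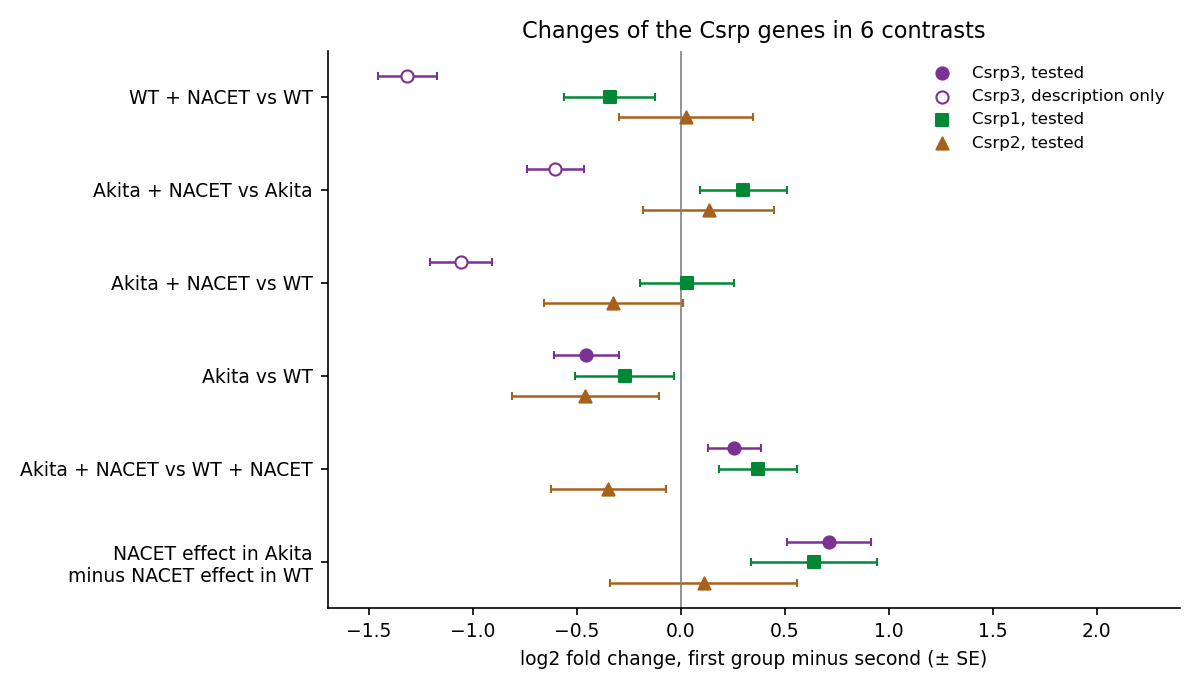
Log2 fold change of each gene (horizontal axis, first group minus second, bars ± SE) in the 5 contrasts of groups and in the interaction (vertical axis); filled symbols are tested contrasts and open circles those that chose Csrp3. Csrp3 lies between −1.32 and −0.60 in the open contrasts and at 0.71 in the interaction, while Csrp1 and Csrp2 stay between −0.46 and 0.64.

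Across all 16183 genes, the share called was 9.65% in Akita + NACET vs Akita, 1.48% in WT + NACET vs WT and 0.00618% in Akita + NACET vs WT. Between genotypes it was 7.64% in untreated retina and 13.3% under NACET. Of Csrp1 and Csrp2, 0 were called in each. The libraries of the groups did not overlap for Csrp3 in WT + NACET vs WT, where this held for 11.5% of genes, in Akita + NACET vs Akita, where it held for 14.1%, and in Akita + NACET vs WT, where it held for 4.17%. For Csrp1 and Csrp2 the groups overlapped in every contrast. The genotype contrasts had 0 of the 3 members without overlap, where 23.2% of genes did not overlap untreated and 8.01% did not under NACET.

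Levels of the 3 genes were compared per kb of exon. In WT, Csrp3 was the highest at 14.9 ± 2.07 CPM per kb (SD, n = 3), Csrp1 followed at 9.27 ± 1.44 and Csrp2 at 2.68 ± 0.287. In Akita the order was the same, with 10.9 ± 1.90, 7.66 ± 1.22 and 1.92 ± 0.819 CPM per kb (n = 4). With NACET, Csrp1 was the highest: 7.29 ± 2.05 CPM per kb against 5.99 ± 0.759 of Csrp3 in WT + NACET (n = 6), and 9.45 ± 2.76 against 7.15 ± 0.632 in Akita + NACET (n = 5). Since its level with NACET chose Csrp3, no test is given for this order.

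Within single libraries, the per-kb level of Csrp3 divided by that of Csrp1 was 1.24, 1.56 and 2.17 in WT and 1.18, 1.36, 1.14 and 2.26 in Akita. In Akita + NACET it was 0.475, 0.906, 0.831, 0.913 and 0.868, so that Csrp3 was below Csrp1 in all 5 libraries and above it in all 7 untreated ones. In WT + NACET the ratio ran from 0.515 to 1.34 and lay above 1 in 2 of 6 libraries, the higher of which was within the range of WT. Csrp3 made up 55.5% ± 6.53 of the per-kb total of the 3 genes in WT, 53.3% ± 9.17 in Akita, 38.3% ± 8.50 in WT + NACET and 38.7% ± 5.21 in Akita + NACET.

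**Figure D3:**
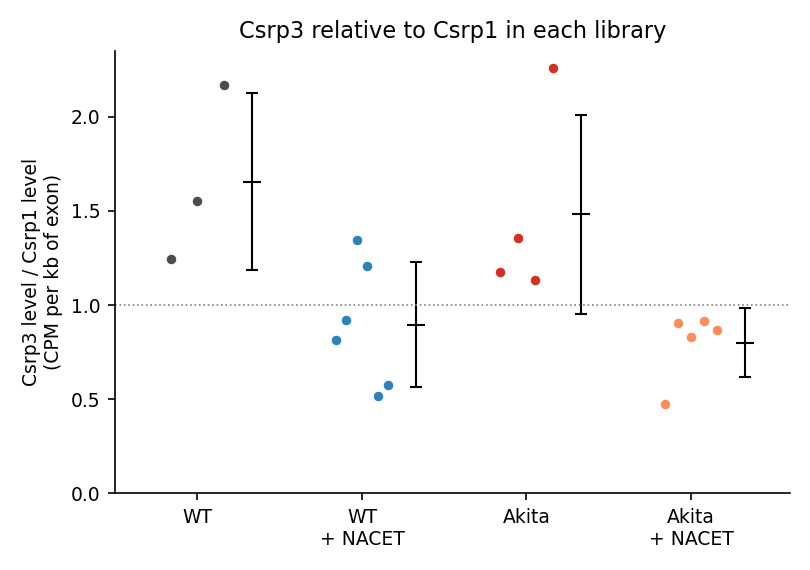
Ratio of the Csrp3 level to the Csrp1 level, both in CPM per kb of exon (vertical axis from 0), in each library by group; points are libraries, bars give the mean and SD, and the dotted line marks equal levels. All 5 Akita + NACET libraries lie below the line and all 7 untreated libraries above it.

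After the group means were taken out, Csrp1 and Csrp3 varied in opposite ways across the 18 libraries (Pearson's r = −0.565), as did Csrp2 and Csrp3 (r = −0.450), while Csrp1 and Csrp2 had r = 0.404. Without that step the values were 0.0546, −0.199 and 0.296. The libraries share depth and composition, and Akita replicate 4 holds the highest or lowest value of its group for all 3 genes, so these are descriptions only.

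The window before the upstream annotated start of Csrp3 is shown because its product acts with myogenic factors, which bind the E-box CANNTG. The sequence is from RefSeq, build GRCm38.p6, minus strand, chr7:48848052-48848301, and capitals mark E-boxes. Both strands were searched, and CANNTG reads alike on both in its fixed letters.
Csrp3: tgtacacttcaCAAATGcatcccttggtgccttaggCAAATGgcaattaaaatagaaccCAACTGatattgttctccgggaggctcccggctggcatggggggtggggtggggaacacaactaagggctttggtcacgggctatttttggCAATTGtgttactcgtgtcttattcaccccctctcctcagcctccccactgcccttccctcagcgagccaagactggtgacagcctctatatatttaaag
The 4 E-boxes began 239, 214, 191 and 100 bases before the start. A second annotated start of Csrp3 also had 4 E-boxes in the same 250 bases, and each of the 2 starts of Csrp1 had 1. At least 1 E-box was found in 66.2% of the 32841 mouse windows of this length. This share does not say how common windows with 4 are, so the difference from Csrp1 cannot be judged from it. A CArG box, the site of serum response factor, was in 1.47% of all windows, a MEF2 site in 2.92% and TGACNNNGC, the core of the antioxidant response element bound by NRF2, in 10.2%. None of these 3 motifs had an exact match in the 4 windows of Csrp1 and Csrp3. Csrp2 was not matched in this table.

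Of the myogenic factors that use E-boxes, Myod1 and Myog had 5 reads each over all 18 libraries. Myf6 had 220 reads, at most 25 in a library, and was tested. Its mean was 1.26 CPM in WT, 0.635 in WT + NACET, 0.647 in Akita and 0.879 in Akita + NACET, and it was not called in WT + NACET vs WT (log2 fold change −0.99 ± 0.38, edgeR adjusted p = 0.159) or in the interaction (1.42 ± 0.53, 0.0634). Of the 20 listed partners of the cysteine-rich proteins, 19 were in the files and 13 were tested. Actn2, the alpha-actinin of the Z-disc, had 63 reads in all, Tcap, the titin cap protein that binds Csrp3, had 83, and Ankrd1 had 4. Partners of non-muscle cells were well covered. Actn4, a non-muscle alpha-actinin, was at a mean of 181.5 CPM and Zyx, the focal adhesion protein zyxin, at 18.3. Cfl2, an actin-severing cofilin best known from muscle, was also well covered, at 79.6 CPM.

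In Akita vs WT, 0 of the 13 tested partners rose and 1 fell, where 7.64% of all genes tested were called. The partner that fell was Nebl, an actin-binding protein of the Z-disc, with a log2 fold change of −0.64 ± 0.17 (edgeR adjusted p = 0.0274). Nebl was also the only partner called in the interaction, at 0.62 (edgeR adjusted p = 0.0448), where 20.3% of all genes were called. None was called in the other 4 contrasts. Zyx had a log2 fold change of −0.36 in Akita vs WT (edgeR adjusted p = 0.151) and 0.33 in Akita + NACET vs Akita (0.129). The median log2 fold change of the partners was −0.12 in WT + NACET vs WT and 0.10 in Akita + NACET vs Akita, against −0.01 and −0.0032 over all genes tested.

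Of 35 other genes with LIM domains or close to them, 31 were tested. In Akita vs WT 3 rose and 1 fell: Lmo1, a transcriptional LIM-only gene, at a log2 fold change of 0.61 (edgeR adjusted p = 0.0165), Limd1, at 0.56 (0.0260), Limk2, a kinase of cofilin, at 0.32 (0.0376), and Fhl1, a LIM protein of muscle, at −0.50 (0.0168). In Akita + NACET vs Akita 1 rose and 3 fell, with Fhl1 at 0.33 (edgeR adjusted p = 0.0422), Lmo1 at −0.50 (0.0204), Limk2 at −0.26 (0.0441) and Pdlim5 at −0.35 (0.0486). In the interaction 2 rose and 3 fell, among them Fhl1 at 0.45 (edgeR adjusted p = 0.0306), Limk1, another cofilin kinase, at 1.03 (0.0437), Lmo1 at −0.86 (0.00307) and Pdlim5 at −0.58 (0.0187). None of the 31 was called in WT + NACET vs WT, where 1.48% of all genes tested were called. Pdlim3 was the only one called in Akita + NACET vs WT + NACET, at −0.46 (edgeR adjusted p = 0.0280). For comparison, calls made up 7.64% of all tested genes between the untreated genotypes and 13.3% between the genotypes given NACET. For NACET within Akita the share was 9.65%, and for the interaction it was 20.3%. The list's median log2 fold change was 0.02 in WT + NACET vs WT and 0.03 in Akita + NACET vs Akita.

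Genes of serum response factor and its cofactors, known from smooth muscle genes, were tested for 16 of 23. Over all genes, 7.64% were called in Akita vs WT and 20.3% in the interaction. With NACET, 9.65% were called in Akita and 1.48% in WT. Tpm1, a tropomyosin, fell in Akita vs WT (log2 fold change −0.45, edgeR adjusted p = 0.0461) and rose in Akita + NACET vs Akita (0.38, edgeR adjusted p = 0.0490). Tpm1 and Mkl2, an actin-sensing cofactor, were the 2 called in the interaction, at 0.50 (edgeR adjusted p = 0.0433) and 0.84 (0.0117). None was called in WT + NACET vs WT. The median log2 fold change of the 16 was 0.04 in that contrast and 0.11 in Akita + NACET vs Akita.

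Calcineurin, a calcium-dependent phosphatase to which Csrp3 is tied in heart muscle, and its NFAT targets were tested for 12 of 16 genes. The only call was Rcan1, a calcineurin regulator, higher in Akita + NACET than in WT + NACET (log2 fold change 0.55, edgeR adjusted p = 0.0161). In that contrast 13.3% of all genes were called. The median log2 fold change was −0.10 in WT + NACET vs WT and 0.09 in Akita + NACET vs Akita. Clock genes were listed as well. In the interaction, the contrast in which Csrp3 was called, 8 of 19 rose and 0 fell, against 1640 and 1649 of all 16183 genes, with Tef at 0.72 (edgeR adjusted p = 0.00666) and Cry2 at 0.51 (0.00759). Their median log2 fold change was 0.41 there, against 0.0042 over all genes. In WT + NACET vs WT 0 of 19 were called. In Akita + NACET vs Akita 2 rose, Tef at 0.39 (edgeR adjusted p = 0.0351) and Per3 at 0.75 (0.0489). In Akita + NACET vs WT + NACET 8 rose, led by Cry2 at 0.43 (edgeR adjusted p = 0.00124), and in Akita vs WT Cry1 rose, at 0.46 (0.0263). Their part in the Csrp3 values was not tested.

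Since Csrp3 is a muscle gene, markers of skeletal and cardiac muscle were counted. Their summed level was 20.5 to 31.4 CPM in WT, 25.9 to 30.5 in WT + NACET, 18.5 to 27.8 in Akita and 20.3 to 25.6 in Akita + NACET. Tnnt1, a slow troponin, at a mean of 10.8 CPM, and Mylpf, a fast myosin light chain, at 5.75 made up most of this sum. Without Tnnt1 and Mylpf it was 5.96 to 14.95 CPM in WT and 6.53 to 10.6 in WT + NACET. It was 6.13 to 9.68 CPM in Akita and 6.335 to 8.87 in Akita + NACET. The part of muscle RNA in the Csrp3 values was not tested. Of the listed myosin heavy chains, Myh1 had 4 reads over all 18 libraries, Myh2 8, Myh4 5, Myh6 12 and Myh13 18. Myh7 had 99 reads in all, at most 10 in a library, against 74 to 255 reads of Csrp3 in each. Of the 22 markers, 8 were tested and 1 was called. Myl2, a ventricular light chain with at most 19 reads, was higher in WT + NACET than in WT (log2 fold change 2.65, edgeR adjusted p = 0.0362). In that contrast 1.48% of all genes were called.

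One library held more reads of some muscle markers than the rest. WT replicate 2 had 25 reads of Ckm, muscle creatine kinase, against 1 to 11 in the other libraries, and 18 of Myl1 against 0 to 3. Its Csrp3 level of 14.6 CPM lay between those of WT replicates 1 and 3, at 11.7 and 15.35, which had 4 reads of Ckm each. Without it, the log2 fold change of Csrp3 in WT + NACET vs WT was −1.28 ± 0.16. Within Akita + NACET the 5 libraries had the same order in Csrp3 and in the marker sum, and within WT + NACET the library with the highest marker sum had the lowest Csrp3.

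**Figure D4:**
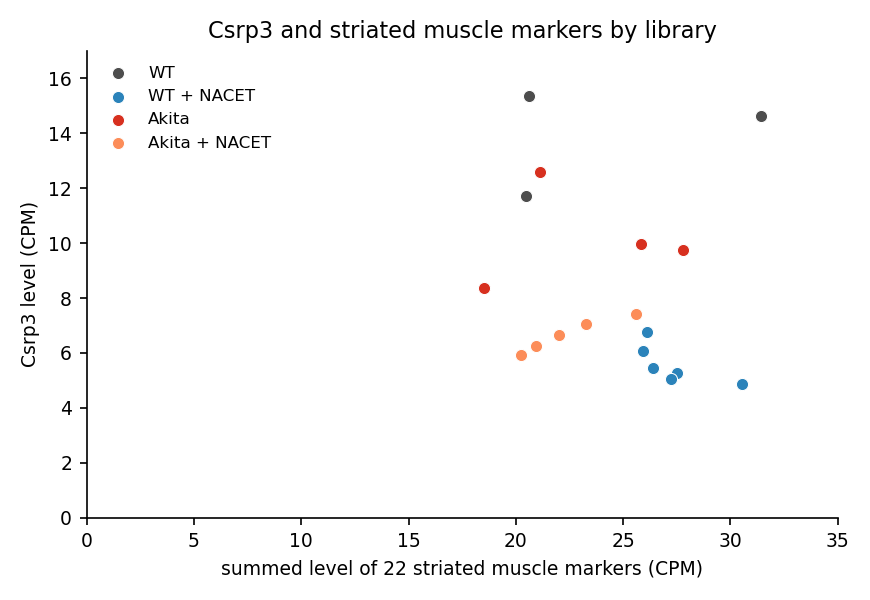
Csrp3 level (vertical axis, CPM) against the summed level of the 22 skeletal and cardiac muscle markers (horizontal axis, CPM) in each of the 18 libraries, coloured by group. The marker sum spans 18.5 to 31.4 CPM over all libraries. It spans 25.9 to 30.5 CPM in WT + NACET and 20.3 to 25.6 in Akita + NACET, without overlap. All NACET libraries lie at or below 7.40 CPM of Csrp3, which was chosen for being lower with NACET.

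Markers of the cells in which muscle LIM protein has been described were also listed. The cholinergic amacrine marker Chat, choline acetyltransferase, was at 18.6 ± 5.34 CPM in WT (SD, n = 3), 15.6 ± 2.26 in WT + NACET (n = 6), 14.9 ± 4.97 in Akita (n = 4) and 16.5 ± 2.44 in Akita + NACET (n = 5). Slc5a7, the choline transporter, was at 18.9 ± 6.25, 15.5 ± 2.88, 14.1 ± 2.61 and 18.65 ± 4.23 CPM in these groups. The share of all genes called with NACET was 1.48% in WT and 9.65% in Akita. It was 7.64% in Akita vs WT and 20.3% in the interaction. Of the 5 cholinergic markers tested, 0 were called with NACET in either genotype, and their median log2 fold change was −0.26 in WT and 0.17 in Akita. Megf10, a receptor of starburst amacrine cells, fell in Akita vs WT (log2 fold change −0.98 ± 0.23, edgeR adjusted p = 0.0226) and was called in the interaction at 1.30 (0.00760). Of 4 broader amacrine markers tested, 3 fell in Akita vs WT: Gad1 and Gad2, which make GABA, at −0.67 (edgeR adjusted p = 0.0272) and −0.55 (0.0360), and the glycine transporter Slc6a9 at −0.66 (0.0365). None was called in the NACET contrasts, and Gad1 was called in the interaction at 0.74 (edgeR adjusted p = 0.0244). Smooth muscle and pericyte markers summed to 42.8 to 65.0 CPM in WT, 61.2 to 131.5 in WT + NACET, 28.4 to 54.4 in Akita and 48.5 to 70.1 in Akita + NACET. Among these, Pdgfrb, a pericyte receptor, was the one called with NACET, in Akita (log2 fold change 1.01, edgeR adjusted p = 0.0354). Pdgfrb fell in Akita vs WT (−1.08, edgeR adjusted p = 0.0437) and was called in the interaction at 1.65 (0.0105). Rgs5 was lower in Akita + NACET than in WT + NACET (−0.66, edgeR adjusted p = 0.0261), where 13.3% of all genes were called. Rod markers had 4 of 6 lower in Akita + NACET than in Akita, with a median log2 fold change of −0.44, the same sign as Csrp3. Their sign was opposite to that of Csrp3 in WT + NACET vs WT (median 0.27, 0 called), in Akita vs WT (median 0.51, 3 higher in Akita) and in the interaction (median −0.76). All 6 were called down in the interaction, where Nrl, a transcription factor of rods, was at −0.90 (edgeR adjusted p = 0.00574). Pigment epithelium markers summed to 306.7 to 1379 CPM in WT + NACET, 141.8 to 516.3 in WT, 55.9 to 208.8 in Akita and 86.0 to 654.8 in Akita + NACET. Of these 5 markers, 0 were called in any contrast. Their median log2 fold change with NACET was 1.51 in WT and 1.97 in Akita, opposite in sign to Csrp3. It was −1.31 in Akita vs WT and 0.34 in the interaction, with the sign of Csrp3, and −0.97 between genotypes under NACET, opposite to it. The part of these cells in the values of the 3 genes was not tested.

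The genes whose levels followed each member most closely were named by Pearson's r of log2 CPM over the 18 libraries, among 14472 genes with a mean of at least 1 CPM. For Csrp3 these were Gsc2, a homeobox gene (r = 0.802), Fam120c (0.796), Rbm4b (0.794), Fzr1 (0.788) and Riiad1 (0.775). Gsc2 was at 11.8 ± 4.28 CPM in WT, 4.53 ± 0.532 in WT + NACET, 11.3 ± 2.11 in Akita and 9.18 ± 1.67 in Akita + NACET. It was called in WT + NACET vs WT (edgeR adjusted p = 0.000592) but not in Akita + NACET vs Akita (0.316). In these contrasts 1.48% and 9.65% of all genes tested were called. Gsc2 was picked for following Csrp3, itself chosen for being lower with NACET, so its call is not independent of that choice. The most opposite were Xlr3a (r = −0.828), Xlr3b (−0.811) and Cdca8 (−0.794). Xlr3b, an X-linked lymphocyte-regulated gene with near-identical copies whose reads may be split, was at 1.46 CPM in WT, 7.46 in WT + NACET, 2.56 in Akita and 5.20 in Akita + NACET. With group means taken out, r with Csrp3 was 0.731 for Gsc2, 0.839 for Riiad1 and 0.279 for Fam120c, and none of the 5 genes stayed among the top 5.

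For Csrp1 the nearest were Nt5c2 (r = 0.785), Thra (0.783), Ube2e2 (0.772), Efhd2 (0.769) and Mfsd5 (0.767), and the most opposite Ccdc87 (−0.832), Ero1lb (−0.829) and BC030307 (−0.766). For Csrp2 they were Lef1 (r = 0.879), D630024D03Rik (0.830), Tmod1 (0.825), Bckdhb (0.8075) and Acss3 (0.801), and the most opposite E2f3 (−0.825), Clasp2 (−0.795) and Arhgap32 (−0.779). The lists of the 3 genes had no gene in common. Lef1, a Wnt pathway transcription factor, was at 0.832 to 1.46 CPM in the group means, so its likeness to Csrp2 is between 2 genes of few reads.

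Genes near Csrp3 moved in both directions. Within 1 Mb were 16 annotated genes, and 4 of them were tested. The nearest, Zdhhc13, a palmitoyltransferase gene 2.96 kb away, was higher in WT + NACET than in WT (log2 fold change 0.36, edgeR adjusted p = 0.0469), opposite in sign to Csrp3, and was called in the interaction at −0.53 (0.00786). Nav2, 398.2 kb away, was called in the interaction in the direction of Csrp3, at 1.49 (edgeR adjusted p = 0.0109), and rose with NACET in Akita (0.83, edgeR adjusted p = 0.0485). Around Csrp2, 8 of 10 genes were tested, with 0 called with NACET in either genotype. Around Csrp1, 26 of 41 were tested, with 1 risen in WT + NACET vs WT, and 1 risen and 3 fallen in Akita + NACET vs Akita. Among all tested genes, the NACET contrast had calls for 1.48% within WT and for 9.65% within Akita, and the interaction for 20.3%.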

How the data were processed

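Retinal poly(A) RNA was measured in 18 libraries. Per the study's methods and the submitters' processing notes, the authors aligned single-end reads to mm9 with TopHat2 2.1.0 and counted them per gene with HTSeq 0.11.2, without strand. Raw counts per gene, without normalization, were deposited. The 5 summary entries and the entry without a name (0.00544% of counts) were left out, and 206 ribosomal RNA genes (0.977% of counts) were removed, as in the study.

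The counts were tested with edgeR 4.0.16 (R 4.3.3): TMM scaling, default filter (minimum count 10, minimum total 15), 4 groups in 1 robust quasi-likelihood fit, 16183 genes, and Benjamini-Hochberg adjustment with calls at 0.05. The biological coefficient of variation was 0.186. SEs were derived from the F statistic. CPM use TMM library sizes. The code was tested on simulated data. The study's tool, DESeq2 (1.42.0), was an alternative, with 2-group fits, other scalings and filters, a replicate block, the percentage of reads outside exons as a covariate, retained ribosomal RNA genes, and omission of each library in turn.

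Members, gene lists and tests were chosen with earlier results of these data known. Named genes were the members, those most like or unlike each, list members called in the contrast described (at most 2 per direction where over 4) and abundant markers, with Acp1 and Wdfy1. Genes outside that rule (Myod1, Myog, Myf6, Actn2, Tcap, Ankrd1, muscle myosins, Ckm, Myl1, Chat, Slc5a7, Zyx, Cfl2 and the neighbours of Csrp3) were chosen for their roles after their values were seen. Likeness used log2 CPM with a prior count of 2. Csrp3 got no test where NACET contrasts chose it. The counting errors given cover counting error only.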

Additional observations from a re-analysis of the deposited data

Results flagged for a closer look

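The NACET effect on Csrp3 passed a test of the difference between the genotypes, in a gene chosen for the sign of that effect in both, so the test is not independent of the choice. The NACET effect in Akita minus the NACET effect in WT was 0.71 on the log2 scale (SE 0.20, edgeR adjusted p = 0.0194), with a log2 fold change of −1.32 in WT and −0.60 in Akita. Of all tested genes, 20.3% were called in the same contrast. The WT + NACET libraries, which enter it, are the ones set apart by Acp1 and Wdfy1, and their part in the difference was not tested. In the 9 sets of 4 to 6 libraries checked, 0 members had a library far from the others, where chance gives about 1 in 20.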

How the results depend on the processing

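Of 492 alternative values of the 18 results (3 genes in 6 contrasts), 473 kept their direction and side of the threshold, or moved less than the spread. Without TMM factors the median log2 fold change of all genes shifted to 0.30 in the interaction, 0.20 in Akita + NACET vs Akita, −0.21 in Akita vs WT, −0.11 in WT + NACET vs WT and 0.10 in Akita + NACET vs WT + NACET. With that scaling Csrp1 passed in the interaction (0.93, edgeR adjusted p = 0.0351), Csrp2 in WT + NACET vs WT turned to −0.083, and Csrp3 passed between genotypes, untreated (−0.66, edgeR adjusted p = 0.0167) and under NACET (0.36, 0.0418), while Csrp3 in Akita + NACET vs Akita moved to −0.39. Relative to the shifted median these were 0.63, 0.026, −0.45, 0.26 and −0.59, near the values with TMM. Csrp3 in Akita vs WT also passed with DESeq2 on all groups (−0.44) and with a mean count of at least 50 (−0.48). The Csrp3 interaction with the covariate for reads outside exons was 0.89 (edgeR adjusted p = 0.382). The cause of these changes was not tested.

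With each library left out in turn, the Csrp3 interaction ran from 0.63 to 0.83 (edgeR adjusted p from 0.00985 to 0.0541), and Csrp3 ran from −1.43 to −1.24 in WT + NACET vs WT and from −0.69 to −0.49 in Akita + NACET vs Akita. Csrp1 in Akita + NACET vs WT ran from −0.16 to 0.11, from 0.11 to 0.38 in Akita + NACET vs Akita and from 0.18 to 0.49 in Akita + NACET vs WT + NACET, each lowest without Akita + NACET replicate 1. Csrp2 ran from −0.14 to 0.31 in the interaction, from −0.18 to 0.15 in WT + NACET vs WT and from −0.11 to 0.30 in Akita + NACET vs Akita, with no call in any. Between genotypes it ran from −0.63 to −0.21 in untreated retina and from −0.51 to −0.14 under NACET. The lowest Csrp2 values of the interaction and of Akita + NACET vs Akita were those without Akita replicate 4, and that of WT + NACET vs WT was without WT + NACET replicate 5.

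The labels number replicates in every group. Libraries of the same number deviated together no more than others (median r −0.00138 over 22 pairs, from −0.332 to 0.345, against −0.45 to 0.451 over 97 other pairs), so the numbers do not pair them. With the replicate block the Csrp3 interaction was 0.72 (edgeR adjusted p = 0.0288), and no call of a member changed. Of the 5 genes most like Csrp3, 5 stayed with a prior count of 0.5, 3 with a rank correlation and 0 with group means taken out; of those like Csrp1, 5, 1 and 1, and of those like Csrp2, 4, 1 and 2. Csrp2, at 9 to 75 reads, is limited by depth.

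The calls over all genes, made with edgeR or DESeq2, set the background shares and depended on the setting. Over the settings other than an omitted library they ran from 17 to 4437 in the interaction (3289 in the reported fit), 0 to 2080 in Akita vs WT (1237), 194 to 3033 in Akita + NACET vs WT + NACET (2148), 61 to 938 in WT + NACET vs WT (240), 0 to 2550 in Akita + NACET vs Akita (1562) and 0 to 28 in Akita + NACET vs WT (1), each lowest with the covariate, apart from the last, which was lowest with the replicate block. With 1 library omitted they fell to as few as 1699, 0, 860, 72, 1 and 0.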
